A study of Mus musculus with 10 samples.

Results

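Among 88,624 promoter contacts scored in mouse haematopoietic stem and progenitor cells (HSPCs), 4,517 (5.10%) reached a score of 5 in both replicates of Npm1c cells and in both replicates of Flt3-ITD cells, but in both replicates of neither the double mutant (DM) nor wild type (WT). They are contacts that both single mutants share and that did not hold that level in both replicates of cells with the 2 mutations combined. The scores of all 8 HSPC libraries chose them, so their scores are described here without a test. They made up 12.2% of the 37,062 contacts that reached 5 in Npm1c, 9.95% of the 45,413 in Flt3-ITD, and 21.4% of the 21,114 that did so in both single mutants.

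Promoter-capture Hi-C joins crosslinked HindIII fragments that lay close together in the nucleus, and captures those joined to a promoter fragment. Each listed contact pairs such a captured fragment (the bait) with another fragment (the other end), and the deposited file gives it 1 interaction score, which has no unit, is never negative and has no stated reference. Sequencing depth is unknown, since the files give no counts. The study asked how 2 leukaemia mutations, alone and together, change chromatin contacts. All mice were C57BL/6: Npm1c animals were Npm1flox-cA/+;Mx1-Cre+, Flt3-ITD animals were Flt3ITD/+, DM animals were Npm1flox-cA/+;Flt3ITD/+;Mx1-Cre+, and WT animals carried neither allele. Each of these groups had 2 biological replicates of lineage-negative bone marrow, and 2 further libraries came from WT neutrophils. Ages are not stated in the labels used here. HSPCs here means whatever a lineage-depletion kit leaves of flushed femur and tibia marrow, a mixture of progenitors, and Mx1-Cre, which switches on the Npm1 allele, acts throughout the blood system and beyond it.

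Npm1c is a frameshift mutation that moves nucleophosmin, a chaperone of the nucleolus, to the cytoplasm. Flt3-ITD duplicates part of the Flt3 receptor, which then signals without its ligand through STAT5 and ERK. Promoters meet distal enhancers and other promoters through loops of chromatin that cohesin extrudes and CTCF arrests, and Hi-C contacts record such proximity without saying whether it changes transcription.

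Some of the single-mutant-only contacts joined 2 promoters, and the promoters of 3 such contacts described below are printed to show which sequences met. Ttk, the mitotic kinase of the spindle checkpoint (chr9:83834439-83834738, plus strand), met Ibtk, an inhibitor of Bruton's tyrosine kinase (chr9:85749285-85749584, minus strand). The zinc finger genes Zfp28 (chr7:6383068-6383367, plus strand) and Zfp954 (chr7:7121427-7121726, minus strand) met each other. Egln2, a prolyl hydroxylase that marks hypoxia-inducible factors for degradation (chr7:27166753-27167052, minus strand), met Lsm14a, an RNA-binding protein of processing bodies (chr7:34389656-34389955, minus strand). The promoter of Igfbp3, a binding protein of insulin-like growth factors (chr11:7213874-7214173, minus strand), is added because its other contacts also passed a test. The sequences are RefSeq's on GRCm38.p6 and run from 250 bases before to 50 bases after the annotated start, 5′ to 3′. Capitals mark a CCAAT box, the E-box letters CACGTG, the ETS-like letters CCGGAAG or the STAT-like letters TTCNNNGAA, searched on both strands.
Ttk: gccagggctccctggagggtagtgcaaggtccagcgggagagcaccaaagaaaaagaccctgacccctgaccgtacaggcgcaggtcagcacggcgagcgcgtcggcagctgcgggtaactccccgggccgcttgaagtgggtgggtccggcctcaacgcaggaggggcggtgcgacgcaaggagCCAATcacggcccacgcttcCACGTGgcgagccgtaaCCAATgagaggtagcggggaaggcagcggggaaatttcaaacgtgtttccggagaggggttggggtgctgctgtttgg
Ibtk: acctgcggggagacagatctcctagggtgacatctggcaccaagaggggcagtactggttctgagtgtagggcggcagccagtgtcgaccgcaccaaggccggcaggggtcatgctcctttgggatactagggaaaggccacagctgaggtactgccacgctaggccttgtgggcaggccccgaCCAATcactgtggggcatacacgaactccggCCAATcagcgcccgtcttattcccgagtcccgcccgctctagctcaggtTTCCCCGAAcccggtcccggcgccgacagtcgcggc
Zfp28: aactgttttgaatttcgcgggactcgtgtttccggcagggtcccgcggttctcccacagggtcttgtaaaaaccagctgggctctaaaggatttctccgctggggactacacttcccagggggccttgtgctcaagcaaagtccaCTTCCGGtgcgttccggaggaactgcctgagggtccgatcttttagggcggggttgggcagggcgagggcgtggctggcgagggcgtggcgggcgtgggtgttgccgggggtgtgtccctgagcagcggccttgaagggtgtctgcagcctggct
Zfp954: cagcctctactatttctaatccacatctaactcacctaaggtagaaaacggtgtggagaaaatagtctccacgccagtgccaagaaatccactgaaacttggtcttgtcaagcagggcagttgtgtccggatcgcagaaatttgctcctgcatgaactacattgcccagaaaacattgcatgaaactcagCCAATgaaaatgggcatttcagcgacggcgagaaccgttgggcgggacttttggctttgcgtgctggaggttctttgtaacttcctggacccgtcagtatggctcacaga
Egln2: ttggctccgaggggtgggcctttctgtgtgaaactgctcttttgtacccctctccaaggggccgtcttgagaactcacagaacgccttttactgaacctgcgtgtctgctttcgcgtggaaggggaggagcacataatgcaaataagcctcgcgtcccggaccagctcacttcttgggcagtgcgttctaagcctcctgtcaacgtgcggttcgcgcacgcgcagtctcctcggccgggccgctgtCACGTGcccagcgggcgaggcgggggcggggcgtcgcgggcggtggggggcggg
Lsm14a: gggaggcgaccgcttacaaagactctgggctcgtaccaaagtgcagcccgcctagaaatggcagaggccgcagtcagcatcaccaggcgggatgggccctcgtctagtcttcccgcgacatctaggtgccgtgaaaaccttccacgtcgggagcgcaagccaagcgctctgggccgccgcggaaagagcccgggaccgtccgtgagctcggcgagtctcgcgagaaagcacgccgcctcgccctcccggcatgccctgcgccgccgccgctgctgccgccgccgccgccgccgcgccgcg
Igfbp3: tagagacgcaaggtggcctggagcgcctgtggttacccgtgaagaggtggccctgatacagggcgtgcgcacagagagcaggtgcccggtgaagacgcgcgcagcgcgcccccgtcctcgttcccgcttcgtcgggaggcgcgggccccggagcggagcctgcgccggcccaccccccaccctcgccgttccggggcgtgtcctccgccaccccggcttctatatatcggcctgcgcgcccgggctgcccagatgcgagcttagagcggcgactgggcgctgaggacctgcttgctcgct

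These letters were common elsewhere. CCAAT stood in 35.8% of the 2,322 protein-coding promoters on baits with a single-mutant-only contact, against 37.5% of the 9,884 on all listed baits and 38.2% of all 21,263 in the RefSeq table. For CCGGAAG the shares were 16.4%, 15.7% and 11.6% in the same order, for TTCNNNGAA 7.45%, 7.32% and 7.69%, and for CACGTG 9.22%, 9.39% and 7.84%. The median GC content was 59.7% on those baits and 59.5% on all listed baits, a difference of less than 1 percentage point.

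The median chosen contact scored only a little above the threshold in the single mutants and a little below it in DM and WT. Their median score was 6.91 and 6.94 in the Npm1c libraries, 6.96 and 6.72 in the Flt3-ITD libraries, 4.36 and 4.35 in the DM libraries, and 4.47 and 4.15 in the WT libraries. Over all listed contacts the medians were 5.10 and 5.60 in Npm1c, 5.74 and 5.69 in Flt3-ITD, 5.55 and 5.63 in DM, and 5.18 and 4.76 in WT. In 28.6% of the chosen contacts, 1,290 in number, every single-mutant library exceeded every DM and WT library. The same held for 4.02% of all listed contacts, and since the rule used these scores nothing is read from the difference. The median difference (mean of Npm1c and Flt3-ITD minus mean of DM and WT, log2 of the score plus 1) was 0.61 in the set and 0.09 over all listed contacts.

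**Figure D1:**
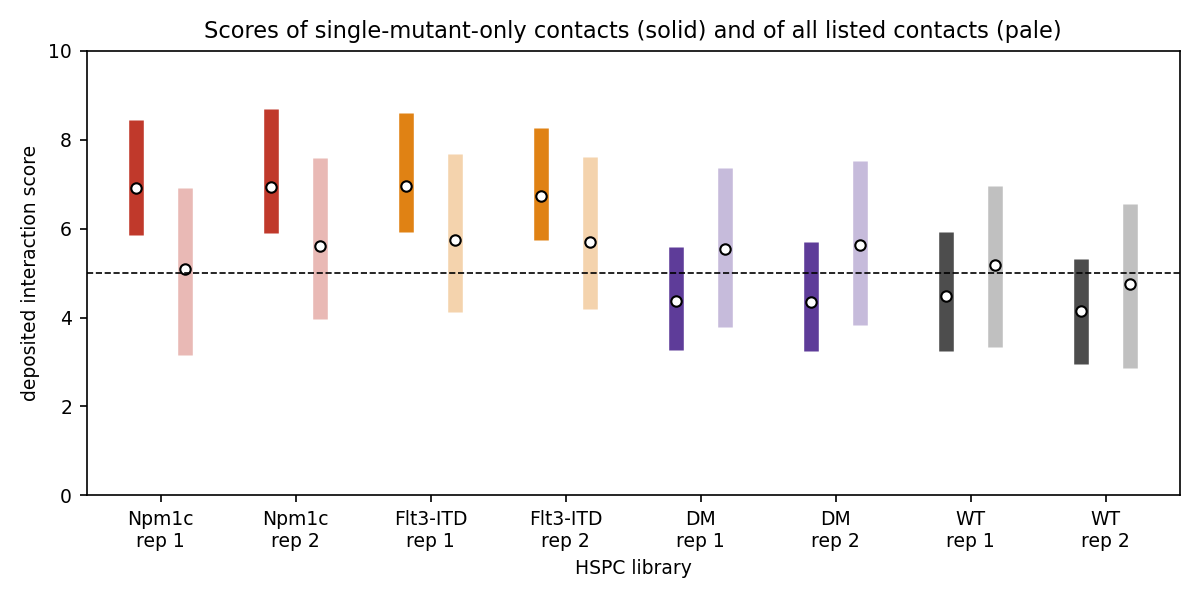
Deposited interaction score (vertical axis) in the 8 HSPC libraries (horizontal axis), as the interquartile range (bars) and median (white points), for the 4,517 single-mutant-only contacts (solid) and all 88,624 listed contacts (pale). Member medians lie between 6.72 and 6.96 in the Npm1c and Flt3-ITD libraries and between 4.15 and 4.47 in the DM and WT libraries; the dashed line is the score of 5 that chose them.

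Most chosen contacts were present at 5 in some DM or WT library. Only 621 (13.7%) were under 5 in all 4 of those libraries, 1,904 reached 5 in 1 of them and 1,992 in 2, the most the rule allows. The lowest single-mutant library was under 5.5 in 1,980 contacts (43.8%), and the lower DM or the lower WT replicate was between 4 and 5 in 2,413 (53.4%). Just inside the threshold, a contact of Crot, a carnitine transferase of peroxisomes, had 5.41 and 5.76 in Npm1c and 5.001 and 5.73 in Flt3-ITD, with 3.90 and 3.34 in DM and 8.80 and 4.62 in WT. Just outside it, a contact of the olfactory receptor gene Olfr57 had 4.999 and 7.31 in Npm1c and 6.25 and 7.36 in Flt3-ITD, with 5.14 and 3.72 in DM and 2.49 and 3.95 in WT. Membership at this edge turned on differences in the third decimal.

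Set beside the other patterns, Npm1c with Flt3-ITD was the second most frequent combination of exactly 2 groups. Flt3-ITD with DM held 5,603 contacts, against 4,517 here, 2,427 for Flt3-ITD with WT, 2,171 for Npm1c with DM, 1,960 for Npm1c with WT and 1,789 for DM with WT. A further 4,584 contacts reached 5 in both single mutants and DM, 2,964 in both single mutants and WT, and 9,049 in all 4 groups.

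Many of the contacts with the widest separation were very long. The promoter fragment of Rad51c and Tex14, the second a germ cell protein of intercellular bridges (chr11:87389853-87406408), touched a fragment at an end of Rdm1, which encodes a protein with a RAD52-like motif, across 14238 kb of chromosome 11. That contact scored 24.8 and 10.4 in Npm1c and 15.0 and 10.5 in Flt3-ITD, and was listed at 0 in both DM and both WT libraries. The same promoter reached another fragment 14331 kb away with 9.66 and 6.50 in Npm1c and 6.93 and 10.6 in Flt3-ITD, again listed at 0 in all 4 DM and WT libraries. Every single-mutant library thus lay above every DM and WT library for both contacts. A neighbouring bait inside Tex14 met the same part of the chromosome over 14228 kb with 26.8 and 42.5 in Npm1c and 35.9 and 48.8 in Flt3-ITD, but its DM libraries gave 23.5 and 0 and its WT libraries 2.14 and 49.9. The groups overlapped there, and replicates of DM and of WT disagreed completely.

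Egln2 met Lsm14a over 7227 kb with 7.10 and 11.7 in Npm1c and 6.55 and 12.1 in Flt3-ITD, listed at 0 in both DM and both WT libraries. A bait inside Prpf39, a splicing factor gene, met a fragment 5863 kb away with 8.30 and 5.67 in Npm1c and 13.6 and 17.8 in Flt3-ITD, also listed at 0 in the DM and WT libraries. Cd244a, the NK cell receptor 2B4, met a fragment of chromosome 14 with 5.18 and 5.08 in Npm1c but 69.8 and 84.8 in Flt3-ITD, and was listed at 0 in DM and WT. The Cd244a contact was thus far higher in Flt3-ITD than in Npm1c, where it lay just above 5. Pttg1, which encodes securin, met a fragment in Ccng1 (cyclin G1) over 2678 kb with 7.98 and 6.99 in Npm1c and 7.45 and 8.59 in Flt3-ITD, against 0 and 0.373 in DM and 0 and 0 in WT. The Arrdc3 promoter, an arrestin-domain gene, met a fragment in Adgrv1, a large adhesion receptor gene, over 498 kb with 8.30 and 9.68 in Npm1c and 11.6 and 7.19 in Flt3-ITD, against 0.913 and 0.0989 in DM and 1.22 and 0.0629 in WT. Groups were apart for both contacts.

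Olfactory receptor, histone and ribosome assembly genes supplied further contacts of this kind. Olfr814 met the Olfr771 fragment over 715 kb with 8.86 and 9.97 in Npm1c and 9.32 and 9.05 in Flt3-ITD, against 0.870 and 0.747 in DM and 0 and 0 in WT. The fragment of the histone genes H1f1, H3c1 and H4c1 met a fragment 2017 kb away with 10.00 and 8.68 in Npm1c and 6.92 and 5.17 in Flt3-ITD, against 1.26 and 0 in DM and 0 and 0.392 in WT. Pno1, an assembly factor of the small ribosomal subunit, met a fragment in Sec61g, a subunit of the protein translocon, over 709 kb with 6.78 and 6.82 in Npm1c and 6.57 and 5.02 in Flt3-ITD, against 0.0365 and 0.161 in DM and 1.39 and 0 in WT. In all 3 every single-mutant library lay above every DM and WT library. A bait inside Ipcef1 met a fragment of chromosome 12, with 19.6 and 71.3 in Npm1c and 18.8 and 50.5 in Flt3-ITD. Its DM libraries gave 3.63 and 0 and its WT libraries 0 and 0. The 9430015G10Rik fragment met an unplaced sequence of chromosome 4, its own chromosome, with 16.2 and 44.9 in Npm1c and 31.2 and 37.4 in Flt3-ITD. There the DM libraries gave 4.39 and 2.20 and the WT libraries 0 and 0.

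**Figure D2:**
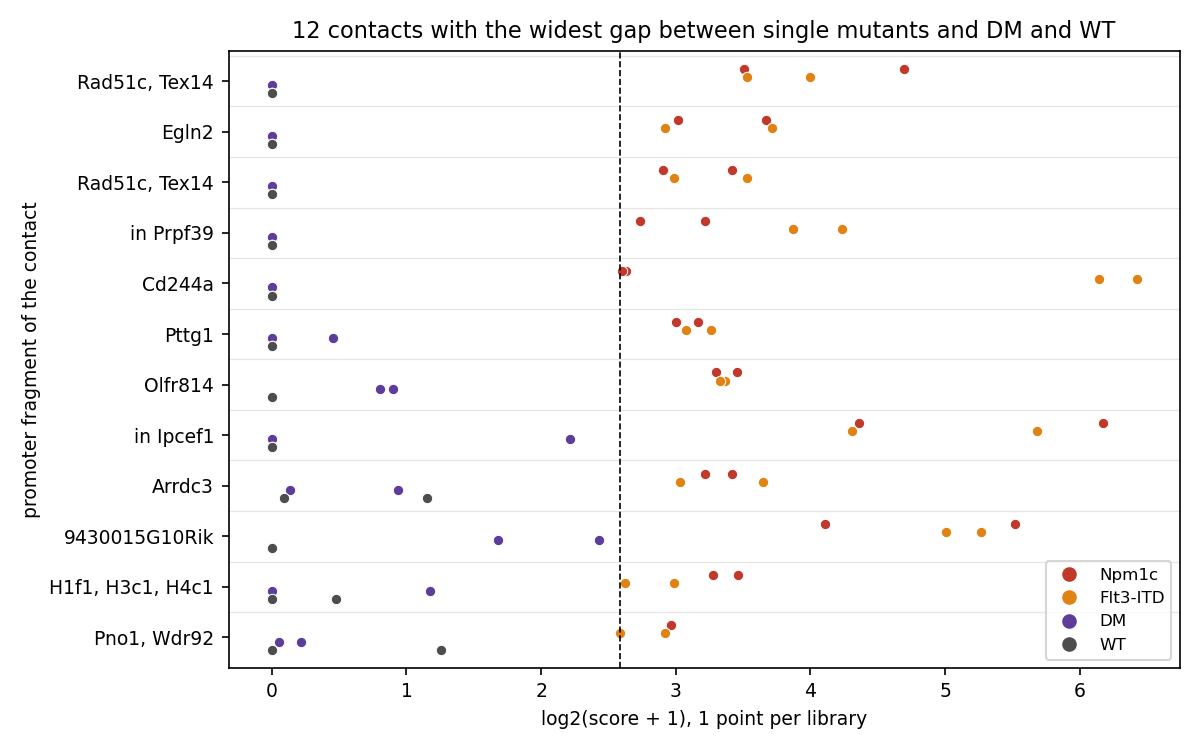
Log2 of the score plus 1 (horizontal axis) in each of the 8 HSPC libraries (points coloured by group) for the 12 single-mutant-only contacts with the widest gap between the lowest Npm1c or Flt3-ITD library and the highest DM or WT library, named by their promoter fragment (vertical axis). Single-mutant points lie right of the dashed line at a score of 5, and DM and WT points lie left of it, 5 contacts having all 4 of them listed at 0.

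Among the 27 contacts whose gap exceeded 1 log2 unit, 17 (63.0%) spanned over 1000 kb or were between chromosomes, and 6 were between chromosomes. Pairs of a bait with an unplaced sequence are counted as between chromosomes. The 6 include contacts of 9430015G10Rik, Agrn and Perm1, which met an unplaced sequence of their own chromosome 4. For the 1,263 with a gap between 0 and 1 the share over 1000 kb or between chromosomes was 3.96%, and for the 3,227 with overlapping libraries it was 4.49%, with median distances of 207 kb and 203 kb on the same chromosome. The gap comes from the scores that chose the contacts, so these shares are a description. Because a listed 0 in a file without counts can be a value that was not estimated, these long contacts are given with no fold change. In total 275 of the chosen contacts were listed at 0 in some DM or WT library, and 5 in all 4.

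Whole fragments were sometimes listed at 0 in a single library. Per library, 28 to 69 other ends and 3 to 59 baits with at least 2 contacts were at 0 in every contact they had. Of the chosen contacts, 28 met the rule because such a fragment was at 0 in 1 DM or WT replicate while the other replicate was at 5 or more. The clearest case was a fragment in Nfkbil1, in the tumour necrosis factor region of chromosome 17. It was the other end of 6 chosen contacts, from baits that include Lta with Tnf and Lst1 with Ltb, with mean scores of 8.38 and 8.93 in Npm1c, 9.04 and 9.92 in Flt3-ITD, 0 and 13.2 in DM and 0 and 10.3 in WT. The Nrarp fragment, other end of 5 chosen contacts, had mean scores of 7.49 and 8.03 in Npm1c, 8.97 and 7.68 in Flt3-ITD, 5.81 and 0 in DM and 6.95 and 0 in WT. At Nfkbil1 the DM and WT replicates that were not at 0 scored above every single-mutant library, and at Nrarp below them.

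A score of 20 in all 4 single-mutant libraries was reached by 6 contacts. The contact of Ibtk with Ttk, over 1917 kb, scored 30.8 and 30.0 in Npm1c and 25.0 and 24.3 in Flt3-ITD, against 0 and 11.7 in DM and 10.7 and 2.96 in WT. Listed from the Ttk side it scored 13.7 and 13.4 in Npm1c and 10.2 and 8.91 in Flt3-ITD, against 0 and 5.01 in DM and 3.70 and 0 in WT. Both listings place all single-mutant libraries above all DM and WT libraries. Mroh2a met a fragment of chromosome 3 with 50.3 and 27.5 in Npm1c and 30.0 and 58.3 in Flt3-ITD, against 0 and 17.5 in DM and 3.72 and 10.8 in WT. The remaining 4 were the Tex14 contact above in both directions and contacts of Agrn and Perm1 with an unplaced sequence of chromosome 4.

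Contacts between promoters could be read from both ends. Of the 855 chosen contacts whose other end was itself a bait, 150 were also listed from the other side, and 52 of these reverse listings (26 distinct contacts) met the rule as well. The reverse listing was higher in the single mutants for 141 of 150, with a median difference of 0.48, against -0.13 over all 6,616 listings that exist in both directions. The 52 that met the rule remain in the 150 and in that median, and the rule itself favours this direction in them. These values are therefore a description. The reverse listings come from the same libraries and fragments, so they are a second reading of the same material rather than an independent replicate. In Zfp28 to Zfp954, over 732 kb, the scores were 7.75 and 11.9 in Npm1c and 6.88 and 6.69 in Flt3-ITD, against 1.38 and 0.199 in DM and 3.17 and 1.57 in WT. From Zfp954 to Zfp28 they were 9.04 and 11.7 in Npm1c and 7.37 and 6.91 in Flt3-ITD, against 1.39 and 0 in DM and 3.20 and 1.05 in WT. Ibtk to Ube2cbp, a ubiquitin ligase gene 715 kb away, gave 12.9 and 13.9 in Npm1c and 10.2 and 9.47 in Flt3-ITD, against 4.09 and 1.29 in DM and 5.56 and 3.57 in WT. All of these groups were apart.

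Ibtk was thus the meeting point of 2 long contacts, towards Ttk on the one side and Ube2cbp on the other. A second fragment inside Ibtk also met Ttk over 1878 kb, with 16.3 and 15.9 in Npm1c and 7.42 and 10.9 in Flt3-ITD, against 1.18 and 3.28 in DM and 0 and 0.944 in WT. Other contacts that met the rule from both ends joined Dnaja2, a co-chaperone of Hsp70, with N4bp1 over 1331 kb, histone genes H2ac7, H2bc7 and H3c4 with H3c2 over 178 kb and with H2bc3 and H3c3 over 172 kb, and Mrpl18 and Tcp1 with Acat2 over 44.5 kb. The Mrpl18 contact scored 7.45 and 5.30 in Npm1c and 8.62 and 7.59 in Flt3-ITD, against 5.57 and 4.87 in DM and 6.12 and 4.42 in WT, so its libraries overlapped.

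The chosen contacts were spread over 2,764 of 12,186 baits and 4,157 other ends. Of those baits 1,821 had a single chosen contact, and 98 had 5 or more and held 630 contacts (13.9%). A protein-coding start lay in 2,193 of the baits, which carried 2,555 of the 10,789 genes on listed baits. The contacts rarely formed blocks: 4,189 had no chosen contact on an adjoining fragment of the same bait, 286 stood in pairs and 42 in runs of 3.

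The promoter fragment shared by Acd, the shelterin protein that brings telomerase to telomeres, and Pard6a, a cell polarity protein (chr8:105700149-105707346), had the most, 16 of its 56 listed contacts. They lay 76.6 to 382 kb away, 14 of them on the side of higher coordinates, across Ranbp10, Tsnaxip1, Nutf2, Edc4 and Slc12a4. Their mean score was 7.24 and 7.39 in Npm1c and 7.35 and 6.61 in Flt3-ITD, against 3.20 and 4.59 in DM and 4.75 and 4.87 in WT. Contacts of this fragment at 5 in both replicates numbered 38 in Npm1c, 39 in Flt3-ITD, 8 in DM and 17 in WT. These counts include the 16 chosen contacts, which the rule itself places in both single mutants and in neither DM nor WT. Its 40 other listed contacts differed by 0.26 (SE 0.13) and did not pass limma's test (adjusted p = 0.294).

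**Figure D3:**
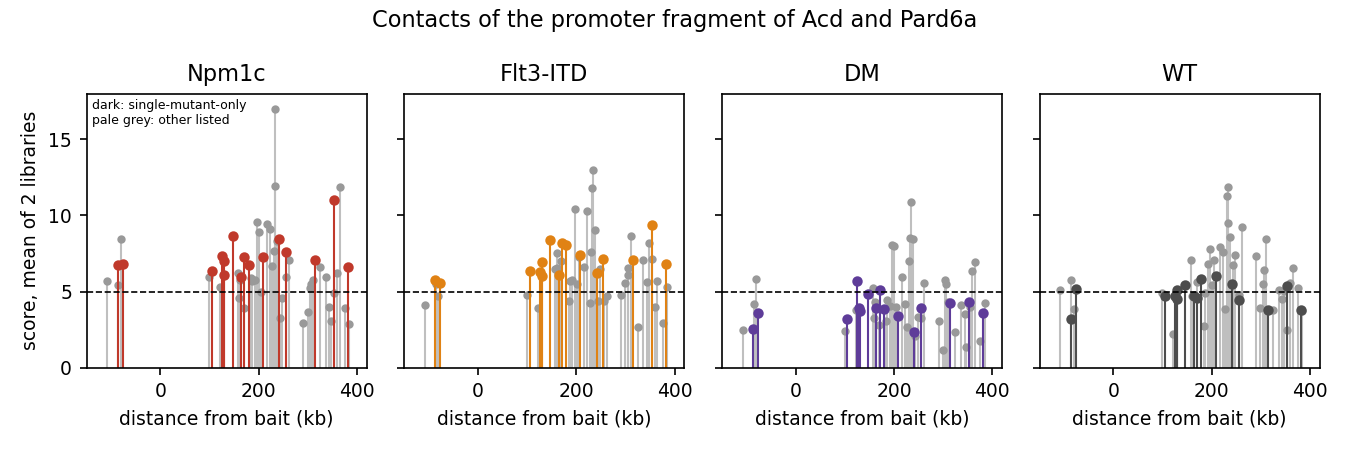
Mean score of 2 libraries (vertical axis) against distance from the bait in kb (horizontal axis) for the 56 listed contacts of the Acd and Pard6a promoter fragment in each HSPC group; larger points in the group's colour (black for WT) are the 16 single-mutant-only contacts, pale grey points the other 40, and the dashed line is a score of 5. The larger points run from 5.95 to 11.0 in Npm1c and from 5.55 to 9.37 in Flt3-ITD, against 2.34 to 5.72 in DM and 3.20 to 6.04 in WT.

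The next baits by number of such contacts held 9 to 12 each. H4c6, a histone H4 gene of the large cluster on chromosome 13, had 12 of 96, with mean scores of 9.61 and 12.7 in Npm1c and 9.88 and 14.0 in Flt3-ITD, against 6.10 and 4.85 in DM and 5.24 and 4.09 in WT. Styk1, a membrane kinase, had 11 of 134, with mean scores of 9.12 and 10.4 in Npm1c and 10.1 and 11.7 in Flt3-ITD, against 5.90 and 3.66 in DM and 3.43 and 2.99 in WT. A bait in Baz1a, a subunit of the ACF chromatin remodeller, had 11 of 35, the highest share of the 12 baits with the most chosen contacts (31.4%). Kat2b, the histone acetyltransferase PCAF, had 9 of 40, with mean scores of 7.02 and 7.79 in Npm1c and 7.73 and 6.50 in Flt3-ITD, against 4.19 and 4.62 in DM and 4.18 and 4.30 in WT. In all of these the mean over the chosen contacts was lower in every DM and WT library than in any single-mutant library.

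Usp7, the deubiquitinase that stabilises Mdm2, had 9 of 69 and Plxnb2, a semaphorin receptor, 9 of 81. Adjacent baits in Ubap2 had 11 of 76 and 9 of 74, and Iah1 had 10 of 119. Angpt2, the angiopoietin that antagonises Tie2 signalling, had 10 of 77, with mean scores of 8.51 and 8.14 in Npm1c and 9.08 and 7.03 in Flt3-ITD, against 3.87 and 3.80 in DM and 5.17 and 7.58 in WT. WT replicate 2 lay inside the single-mutant range there, and contacts of Angpt2 at 5 in both replicates numbered 56 in Npm1c, 43 in Flt3-ITD, 4 in DM and 55 in WT. Its 10 chosen contacts are again part of the single-mutant counts by the rule. None of these 12 baits passed the test on its other contacts (adjusted p = 0.0765 to 0.575, limma).

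A second question was whether the rest of a promoter's contacts followed its chosen ones. For each bait with at least 10 contacts outside the set, those other contacts were averaged in log2(score + 1) and compared between Npm1c and Flt3-ITD on the one side and DM and WT on the other (limma over 2,662 baits, Benjamini-Hochberg). Of the 1,397 tested baits that also held a single-mutant-only contact, 58 (4.15%) were higher in the single mutants and 0 lower, against 3.01% higher and 0.263% lower over all tested baits. At an unadjusted p under 0.05 (limma), 305 of the 1,397 were higher and 13 lower, against 425 higher and 85 lower over all 2,662 tested baits. Of the 1,265 baits without such a contact 22 were higher (1.74%) and 7 lower. The median difference was 0.14 with and 0.01 without such a contact, and over all baits 0.08. The chosen contacts themselves, which are high in the single mutants, are left out of each mean. Both the list and the split of baits into those with and without a chosen contact were made from the same 8 libraries. Leaving the chosen contacts out does not undo that, and the part of this selection in the medians and calls was not tested.

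Calls on the other contacts depended on single libraries and on scaling. The 80 higher and 7 lower calls became 53 higher and 73 lower after quantile normalization, where the median over all baits was -0.03, and among baits with a chosen contact 40 were then higher and 11 lower. The total was 87 calls. Leaving out Flt3-ITD replicate 1 gave 11 and leaving out its replicate 2 gave 10. For DM the counts were 19 without the first and 23 without the second replicate, for WT 28 and 33, and for Npm1c 229 and 80. In every one of these fits without a library, most calls were in the direction of higher scores in the single mutants.

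**Figure D4:**
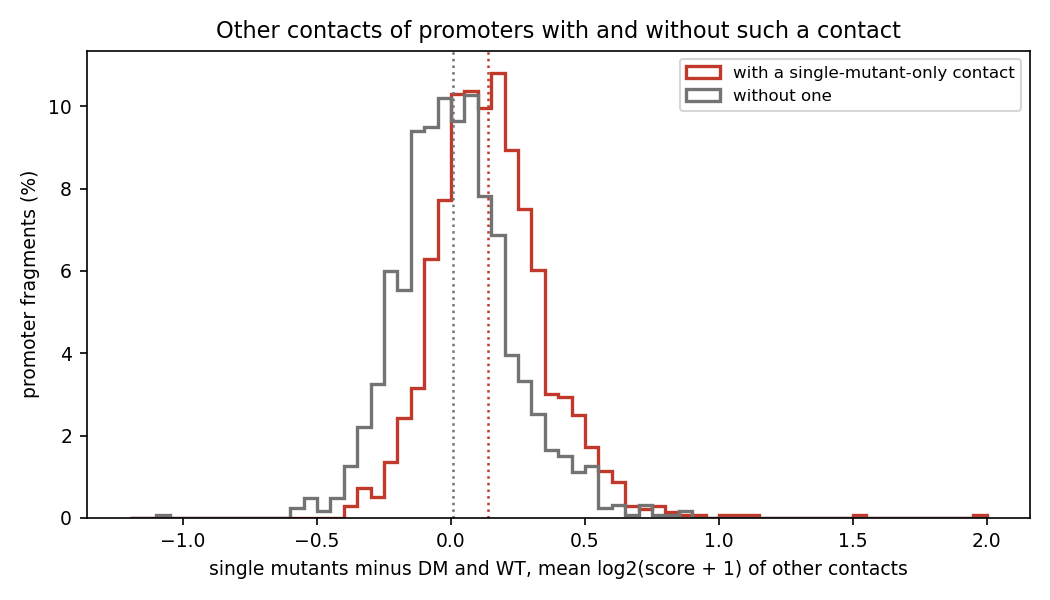
Share of tested promoter fragments in percent (vertical axis) by the difference of their other contacts, single mutants minus DM and WT, in mean log2 of the score plus 1 (horizontal axis), for the 1,397 fragments with a single-mutant-only contact (red) and the 1,265 without (grey). Dotted lines mark the medians, 0.14 with and 0.01 without such a contact.

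Of the promoters that rose on their other contacts, the 10 with the smallest adjusted p are described. Vdac3, a mitochondrial outer membrane channel (chr8:22589865-22595364), averaged 3.32 and 3.28 in Npm1c and 2.94 and 3.49 in Flt3-ITD over 17 other contacts, against 2.33 and 2.07 in DM and 2.21 and 2.14 in WT, all in log2 of the score plus 1. The difference was 1.07 (SE 0.14, adjusted p = 0.00198, limma), and it was 0.64 and still called when contacts listed at 0 in any library were left out. Igfbp3 averaged 2.39 and 2.82 in Npm1c and 3.18 and 3.16 in Flt3-ITD over 16 other contacts, against 1.93 and 2.09 in DM and 2.06 and 1.79 in WT. Its difference was 0.92 (SE 0.13, adjusted p = 0.00334, limma), and the groups did not overlap. Its own single-mutant-only contact, 1029 kb away, scored 13.01 and 7.80 in Npm1c and 7.01 and 11.3 in Flt3-ITD, against 2.36 and 2.48 in DM and 3.04 and 2.88 in WT.

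Shh, the Sonic hedgehog ligand (chr5:28463005-28467167), averaged 2.93 and 2.91 in Npm1c and 2.54 and 2.80 in Flt3-ITD over 11 other contacts, against 2.02 and 2.03 in DM and 1.94 and 1.90 in WT. The difference was 0.82 (SE 0.11, adjusted p = 0.00334, limma), again without overlap. Its single-mutant-only contact lay in Lmbr1, the gene that houses the distant limb enhancer of Shh, 838 kb away, and scored 10.8 and 9.76 in Npm1c and 10.9 and 9.18 in Flt3-ITD, against 3.39 and 1.37 in DM and 0.512 and 0.124 in WT. The fragment in question was not matched to that enhancer. Arl4a, a small GTPase, rose by 1.12 over 10 other contacts, but Npm1c replicate 2 (2.14) was inside the DM range (2.21 and 1.90).

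The other promoters among the 10 with the smallest adjusted p were Mroh2a (0.76), the olfactory receptor genes Olfr382 (0.79) and Olfr623 with Olfr624 (0.71), Armc5 (0.77), a tumour suppressor of the adrenal cortex, and baits without an annotated gene start at chr2:164619028-164628343 (1.03) and chr13:4769275-4774884 (0.84). The call of Mroh2a was lost when contacts listed at 0 were left out (difference 0.13, adjusted p = 0.652) and without Flt3-ITD replicate 2. Those of Olfr382 and Armc5 were lost without Flt3-ITD replicate 1, and that of Olfr623 with Olfr624 without either Flt3-ITD replicate. Among all 58 called baits with a chosen contact the difference ran from 0.44 to 1.95, and in 39 every single-mutant library lay above every DM and WT library. Mad2l1, the spindle checkpoint protein, had the largest difference with wide replicate spread: 4.34 and 5.04 in Npm1c and 3.57 and 2.35 in Flt3-ITD, against 3.57 and 1.91 in DM and 1.78 and 0.248 in WT.

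**Figure D5:**
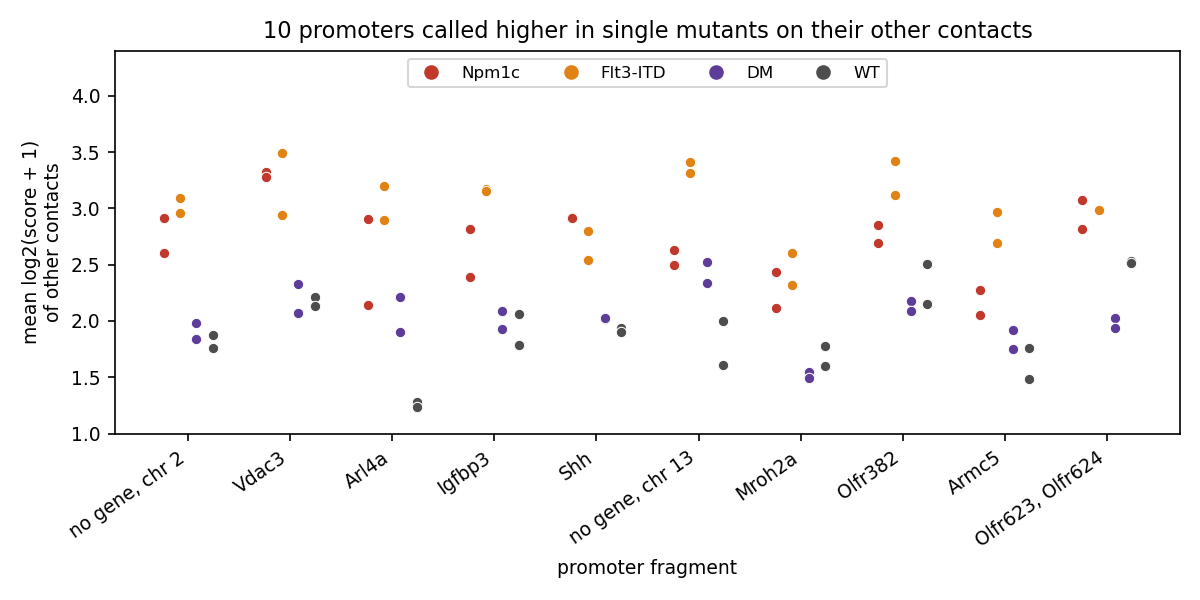
Mean log2 of the score plus 1 over the other contacts (vertical axis) of the 10 promoter fragments with a single-mutant-only contact and the smallest adjusted p (horizontal axis), 1 point per library coloured by group. Npm1c and Flt3-ITD points lie above DM and WT points at 8 of the 10, with overlap at Arl4a and at the fragment on chromosome 13.

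For single contacts the same contrast is the one the rule used. Of 88,421 contacts tested, 0.42% were higher and 0.145% lower in the single mutants, and of 4,498 chosen contacts 54 were higher and 0 lower, from which nothing is read. In place of 371 higher and 128 lower calls, quantile normalization gave 266 and 191, and leaving out any library gave 0 to 73 calls. Those counts were 73 and 4 with the first and with the second Npm1c replicate left out, 0 and 3 for Flt3-ITD, 0 and 0 for DM and 1 and 1 for WT.

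Neighbouring fragments of the same bait were higher in the single mutants more often than other contacts outside the set. A listed neighbour existed for 2,570 of them, and of the 3,131 neighbouring contacts outside the set 69.5% were higher in the single mutants, with a median difference of 0.18. Among all 84,107 contacts outside the set 55.8% were higher, with a median of 0.06. By group, 52.8% of these neighbours reached 5 in both Npm1c replicates and 62.2% in both Flt3-ITD replicates, against 38.7% and 48.6% outside the set. In WT the shares were 43.5% and 36.8%, so neighbours were also more often at 5 there. In DM they were 49.9% and 51.4%. Neighbours share a bait and ligation neighbourhood with the chosen contact, so these are not independent observations.

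By gene group, signalling genes of the Flt3 pathway held 18 chosen contacts of 228 listed (7.89%), against 5.08% for all gene-bearing baits. They belonged to 9 of 25 genes (36%, against 23.7% of all genes on listed baits), among them the kinase Fes and the ubiquitin ligase Cbl. The best-separated Fes contact scored 8.18 and 5.44 in Npm1c and 6.60 and 13.2 in Flt3-ITD, against 4.00 and 2.82 in DM and 3.64 and 3.85 in WT. The best-separated Cbl contact, with Rnf26, scored 7.11 and 9.57 in Npm1c and 5.43 and 7.79 in Flt3-ITD, against 3.09 and 3.83 in DM and 3.99 and 3.54 in WT. None of the 10 promoters of this list that were tested on their other contacts passed. STAT5 and ERK response genes held 17 of 377 (4.51%), with Pim3, a STAT5-induced kinase, at 6.43 and 7.00 in Npm1c and 9.07 and 6.62 in Flt3-ITD, against 2.63 and 4.53 in DM and 1.10 and 1.59 in WT.

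Stem and progenitor factors held 13 of 271 (4.80%), and 3 of the 10 promoters tested rose on their other contacts, Mycn, Sox4 and Tal1, while 0 fell, against 3.01% higher over all tested promoters. At Sox4 the libraries overlapped, with 2.57 in Flt3-ITD replicate 1 and 2.68 in DM replicate 2. Mycn, a Myc family factor, averaged 2.72 and 3.09 in Npm1c and 2.63 and 2.65 in Flt3-ITD over 16 other contacts, against 2.24 and 2.51 in DM and 2.21 and 1.86 in WT (limma, adjusted p = 0.0408). Its single-mutant-only contact, 325 kb away, scored 7.67 and 6.07 in Npm1c and 5.10 and 8.36 in Flt3-ITD, against 2.90 and 1.59 in DM and 2.76 and 0.997 in WT. The rule chose that contact by these scores, so nothing is read from its separation. On the other contacts every single-mutant library lay above every DM and WT library. Mycn was not among the 10 promoters followed through the alternatives. The HoxA cluster with its cofactors, whose genes stay on in Npm1c leukaemia, held 1 of 113 (0.885%), a contact of Hoxa3 and Hoxa7 that overlapped between groups.

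Cell cycle and replication genes held 23 of 391 (5.88%) over 13 of 38 genes, with 1 of 11 tested promoters higher on its other contacts, Mad2l1. Over all gene-bearing baits 5.08% of contacts were chosen and 23.7% of genes had one, and 3.01% of all tested promoters were higher. DNA repair genes held 11 of 150 (7.33%), 1 of 6 promoters being called, that of Rad51c with Tex14 (difference 0.60). Adhesion and stroma genes held 17 of 148 (11.5%), of which 10 were Angpt2's. Interferon response genes held 15 of 237 (6.33%), and mitochondrial channel and respiratory chain genes 13 of 230 (5.65%), where Vdac3 and the bait of Lrrc41 with Uqcrh were called of 10 tested. Secreted signalling genes of development held 8 of 189 (4.23%), and of 9 promoters tested 2 were higher, Igfbp3 and Shh, and 1 lower, Gdf2. The median difference over those 9 was -0.11, against 0.08 over all tested promoters. Macrophage and dendritic cell genes (0 of 86) and neural genes (0 of 52) held none. These shares rest on few baits each and contacts of a bait share its libraries and capture, so no list is set apart from them.

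Marker genes of mature and other lineages bear on the makeup of the depleted marrow, and their shares lay on both sides of the 5.08% of all gene-bearing baits. Mature neutrophil genes held 11 of 192 (5.73%), B lineage genes 4 of 68 (5.88%) and T and NK genes 10 of 170 (5.88%). Early granulocyte and monocyte genes held 3 of 120 (2.5%), erythroid genes 7 of 199 (3.52%) and megakaryocyte genes 2 of 82 (2.44%). The best-separated contact of S100a9, a calgranulin of neutrophils, scored 9.02 and 7.23 in Npm1c and 5.58 and 8.05 in Flt3-ITD, against 4.31 and 2.72 in DM and 3.34 and 4.76 in WT. The median difference over the listed contacts was -0.05 for mature neutrophil genes and -0.22 for early granulocyte and monocyte genes. It was -0.01 for megakaryocyte, 0.07 for B lineage, 0.06 for T and NK and 0.21 for erythroid genes. Over all listed HSPC contacts it was 0.09. Of the 7 neutrophil gene promoters tested on their other contacts, 0 were called. Cell composition was not measured in these libraries, and its part in the chosen contacts was not tested.

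The WT neutrophil list, which the rule did not use, contained 562 of the chosen contacts (12.4%, 95% Wilson interval 11.5 to 13.4, covering counting error only). The share was 15.9% over all listed HSPC contacts, 18.6% for contacts of Flt3-ITD and DM only and 13.5% for those of Npm1c and DM only. This share moved with the threshold, to 18.6% at a score of 6 and 25.7% at 7, and was 7.41% for the 621 contacts under 5 in all 4 DM and WT libraries. Within the list, the chosen contacts had median neutrophil scores of 7.43 and 7.14, against 7.79 and 7.72 for all 14,093 contacts in both lists. All 10 chosen contacts of Ptpre, a receptor-type tyrosine phosphatase, were in the neutrophil list, all within 200.0 kb on the higher-coordinate side. As a whole this bait had 57 contacts in the neutrophil list and 39 in the HSPC list. How many of its 29 other HSPC contacts were in both lists was not counted, so nothing particular to the chosen ones is read. At the Ptpre contact 198 kb away the neutrophil scores were 19.8 and 13.1, set beside 6.21 and 6.16 in Npm1c, 5.56 and 5.89 in Flt3-ITD, 3.50 and 5.61 in DM and 6.62 and 4.59 in WT. Neutrophil and HSPC scores come from separately made lists, so their levels are not compared.

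By the mean of the 2 neutrophil libraries, the 6 chosen contacts with the highest scores belonged to Klhl2, Ptp4a1, Phf3, Siglece and the histone genes. A contact of the phosphatase Ptp4a1 over 200.1 kb scored 23.8 and 19.6 in neutrophils, with 8.68 and 7.50 in Npm1c, 8.73 and 12.1 in Flt3-ITD, 3.41 and 4.21 in DM and 4.91 and 4.15 in WT. Phf3 met the same fragment. H2ac4 met the fragment of H1f5 and H3c11 over 1968 kb with 23.5 and 15.3 in neutrophils, and with 9.09 and 27.2 in Npm1c, 23.0 and 13.2 in Flt3-ITD, 10.0 and 4.99 in DM and 6.70 and 3.95 in WT. Npm1c replicate 1 lay below DM replicate 1 there, so the libraries overlapped.

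Chosen contacts on the same chromosome spanned a median of 205 kb, against 218 kb for all listed contacts, 212 kb for Flt3-ITD and DM only and 235 kb for Npm1c and DM only. Their share among listed contacts was 6.39% under 25 kb and 4.24% beyond 1600 kb. Contacts between chromosomes made up 0.620% (28 contacts), against 0.316% of all listed contacts, and 6 of the 28 had no 0 in any DM or WT library. A pair with an unplaced sequence was counted here, even one of the bait's own chromosome. The 28 include 19 contacts whose other end lay on Y or unplaced sequence, and 203 of all listed contacts had such an end. The share between chromosomes was 0.143% for Flt3-ITD and DM only and 0.322% for Npm1c and DM only. It was 0.567% for contacts at 5 in both single mutants and DM, and 0.675% in both single mutants and WT. The other end was a bait in 18.9% of the chosen contacts, against 22.9% of all listed. For Flt3-ITD and DM only that share was 18.9%, and for Npm1c and DM only 22.5%. By chromosome, the share of listed contacts that were chosen ran from 4.56% on chromosome 15 to 5.80% on chromosome 16 among the autosomes. Of the 8 windows of 1 Mb with the most chosen contacts, the histone genes of chromosome 13 held 61 of 1,087 listed (5.61%). The highest shares among these windows were around Tox4 on chromosome 14 (38 of 351, 10.8%), around Aptx on chromosome 4 (29 of 291, 9.97%) and around Acd on chromosome 8 (40 of 435, 9.20%).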

How the data were processed

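Promoter-capture Hi-C of HindIII fragments was measured in 8 HSPC libraries (4 genotypes, 2 biological replicates each, per the labels) and 2 WT neutrophil libraries. The deposited score is the authors' interaction score per pair of bait and other end, and the files' other value is a distance in bp. The build was mm10, per the submitters' processing notes; the aligner, interaction caller, filters and definition of the score are not given in the sources used here. All HSPC files list the same pairs. With no counts deposited, depth is unknown and no counting limit can be set on a score.

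The contacts, gene lists and tests were chosen with earlier results of these data known. Contacts were matched between the HSPC and neutrophil lists by both fragments. A gene was given to a fragment that holds its RefSeq start (GRCm38.p6), or either end where the promoter table lists no start. Scores were tested as log2 of the score plus 1 in R 4.3.3 by limma 3.58.1, two-sided with moderated variances (eBayes) and Benjamini-Hochberg adjustment (0.05). One fit of 4 group means gave the contrast of the mean of Npm1c and Flt3-ITD minus the mean of DM and WT, which is the interaction of the mutations times a constant with the sign turned. It was run over 88,421 contacts on autosomes and X (203 others, 19 of them chosen, were left out) and over 2,662 baits with at least 10 contacts outside the set. The fits were tested on simulated data. With 2 replicates a group, p-values rest on the spread pooled over 4 groups. Same-numbered replicates did not deviate together (correlations of replicate differences between groups -0.01 to 0.07), so the numbers were not used as pairs.

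Named are the 12 baits with the most chosen contacts, the 12 contacts with the widest gap, up to 2 contacts per gene list, up to 10 called promoters, up to 10 contacts chosen from both sides, the 6 highest in neutrophils and those at the threshold. Contacts at 20 or more in all single-mutant libraries, shared other ends, the Mad2l1 promoter and the windows were added after their values were seen. Alternatives changed the threshold, scaling, pseudocount, transformation, filter on 0, number of contacts, replicate block and each library.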

Additional observations from a re-analysis of the deposited data

Results flagged for a closer look

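The 10 promoters below differed between the single mutants and DM with WT on contacts that the rule did not choose. The test was equivalent to that of an interaction between the mutations (limma, adjusted p = 0.00126 to 0.00837 over 2,662 baits). Scores were higher in the single mutants at each. Those contacts were still selected, since every listed contact reached the score threshold in both replicates of some HSPC group. The list thus rests on the scores being tested. Its part in these differences and p-values was not tested. In log2 of the score plus 1, the difference was 1.03 at the bait on chromosome 2 from 164619028, 1.07 at Vdac3, 1.12 at Arl4a, 0.92 at Igfbp3 and 0.82 at Shh. It was 0.84 at the bait on chromosome 13 from 4769275, 0.76 at Mroh2a, 0.79 at Olfr382, 0.77 at Armc5 and 0.71 at Olfr623 with Olfr624. Each of the 10 kept its direction in the 15 to 18 alternatives that could test it, and the first 6 also kept their call. With contacts at 0 left out, Arl4a, Shh, the bait on chromosome 13 and Olfr382 were not tested, and with at least 20 contacts Mroh2a was the only 1 of the 10 tested.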

How the results depend on the processing

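With the threshold at 6, 2,696 contacts were chosen, 18.6% of them in the neutrophil list, 1.08% between chromosomes and 21.5% with a bait at the other end. With the threshold at 7 these were 1,784, 25.7%, 1.63% and 27.2%, and the median distance 198 kb. With all 4 DM and WT libraries under 5 they were 621 contacts, 7.41% in neutrophils, 12.7% with a bait at the other end and 211 kb. Quantile normalization gave 216 kb. Leaving out contacts at 0 in a DM or WT library, a choice made after seeing the data, gave 197 kb and 0.141% between chromosomes. Without each library in turn, 2,849 to 9,241 contacts were chosen, 10.1% to 12.7% in neutrophils, 0.503% to 0.666% between chromosomes, 17.3% to 18.5% with a bait at the other end, at 204 to 226 kb. Contacts called numbered 37 with a pseudocount of 2, 0 when pairs at 0 in any library were left out (limma, 11,253 at an unadjusted p under 0.05), 6 with the replicate block, and 0 to 73 without each library. Promoters called numbered 40 without pairs at 0, 55 with the replicate block, 131 with at least 5 contacts, 31 with at least 20, 212 with the chosen contacts kept, and 10 to 229 without each library. The replicate numbers mark no shared animal or day in the labels. Fewer contacts or libraries enter several of these fits; otherwise the cause was not tested. With 2 libraries a group and unknown depth, single contacts are the least certain values here.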

Other observations

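Among the 7 promoters that were lower in the single mutants on their listed contacts, none held a single-mutant-only contact, against 1,397 of all 2,662 tested. The rule chose such contacts for high scores in the single mutants, so nothing is read from this. Fgfbp3, a carrier of fibroblast growth factors, had the largest change, -1.10 (SE 0.13, adjusted p = 0.00126, limma). The others were Rab31 (-0.52), Dhrs1 with Nop9 (-0.53), Gdf2 (-0.55), Sprn (-0.55) and 2 baits of chromosome 19 without an annotated gene start (-0.60 and -0.51).

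Several other ends served more than 1 promoter. Of the 4,157 other ends, 316 were in 2 or more chosen contacts. A fragment of chromosome 11 (chr11:70517708-70518731) was the other end of 6, from baits that include Gp1ba, the platelet receptor for von Willebrand factor, Camta2, Kif1c, Zfp3 and Scimp. Its mean score over them was 7.98 and 6.80 in Npm1c and 7.90 and 6.76 in Flt3-ITD, against 5.89 and 3.58 in DM and 6.54 and 3.75 in WT. The fragment of Rab2b and Tox4 was the other end of 4, with mean scores of 9.67 and 11.3 in Npm1c and 10.9 and 11.7 in Flt3-ITD, against 6.68 and 4.13 in DM and 3.66 and 9.95 in WT.

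The longest runs of adjoining chosen fragments had 3 members. Adamts1, a secreted metalloproteinase gene, met such a run 1441 to 1446 kb away, with mean scores of 9.08 and 10.8 in Npm1c and 10.9 and 12.5 in Flt3-ITD, against 8.70 and 2.92 in DM and 9.47 and 2.53 in WT. Saysd1 met a run at the Rtraf fragment, 263 to 268 kb away, with 8.72 and 12.1 in Npm1c and 10.1 and 8.49 in Flt3-ITD, against 4.39 and 5.59 in DM and 3.47 and 5.18 in WT. The groups were apart at Saysd1, and at Adamts1 WT replicate 1 lay inside the single-mutant range.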
